A study of Mus musculus with 30 samples.

Results

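Small nucleolar RNA (snoRNA) host genes are genes whose transcripts carry snoRNA sequences, most often in introns. The 10 noncoding host genes Gas5, Snhg1, Snhg3, Snhg5, Snhg6, Snhg8, Snhg12, Snhg14, Snhg15 and Snhg17 were taken by name out of the 55401 genes in each of 4 tables of nuclear RNA-seq counts, and each was matched to 1 gene identifier. All 10 were analysed in the exon column of every table, and contrasts were made within a table only. The libraries came from mouse embryonic stem (ES) cells in serum and leukemia inhibitory factor medium, in duplicates that the study's methods call biological.

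The first table holds parental CGR8 cells without treatment and after 4 h in 500 µM indole-3-acetic acid (IAA, an auxin). The second holds SYAT cells, a CGR8 derivative in which both Srcap alleles carry YPet-AID and which expresses OsTir1, so that IAA degrades SRCAP, the ATPase that places the histone variant H2A.Z into nucleosomes. SYAT cells were compared in the control medium with auxinole, an OsTir1 inhibitor, and after 2, 4, 6 and 8 h of IAA. The third table holds SYAT cells sorted by DNA content and a mitotic degron reporter into early G1 (EG1) and late G1 (LG1), each in the control medium and after 1 h of IAA. The fourth holds SYAT cells that express wtSRCAP-mCherry or the catalytically dead cdSRCAP-mCherry after 24 h of doxycycline, each in control medium and after 4 h of IAA. The cells of the fourth table carry the degradable endogenous SRCAP as well, come from 1 clone for each construct, and were sorted for similar mCherry levels. All 15 groups have 2 libraries, so every adjusted p below rests on 2 libraries a group within a fit of the whole table.

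A host transcript is spliced, and the excised intron is trimmed down to the snoRNA, which is kept in the nucleus by its bound proteins. Box C/D snoRNAs guide 2′-O-methylation and box H/ACA snoRNAs guide pseudouridylation of ribosomal and other RNAs. The spliced remains of noncoding hosts such as Gas5 and Snhg1 are known to be translated briefly on ribosomes and destroyed by nonsense-mediated decay, and several of these genes start with a pyrimidine tract as ribosomal protein genes do. Snhg14 is different: it is the long imprinted transcript of the Prader-Willi and Angelman syndrome region, carries the repeated Snord115 and Snord116 genes, and runs into the antisense of Ube3a in neurons.

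The exon columns summed to between 12236493 and 60214521 counts a library, with a median of 22071971 over 30 libraries. All 10 ES cell marker genes examined, among them Pou5f1 and Sox2, were above a level of 1 in every library in counts per 1000000 of the normalised library (CPM), with a summed level of 1797 to 4881. Fibroblast or feeder markers summed to 5.18 to 47.9 and primitive endoderm markers to 5.35 to 25.0. Of the 8 fibroblast or feeder markers, 1 (Postn) was at 0 in all libraries and 1 (Col1a1) was above 1 in all, at 1.36 to 31.65. Of the 6 primitive endoderm markers, 1 (Dab2) was above 1 in every library, at 1.66 to 10.0. Srcap RNA, which the protein degradation does not target, was at 39.9 and 45.8 CPM in the SYAT controls and 44.9 and 58.8 at 8 h, with a log2 ratio of 0.27 (standard error, SE, 0.175).

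The annotation decides what the exon and intron columns of these genes can show. In GENCODE vM21 (GRCm38, also called mm10) the exons of all transcripts of a gene were merged, and 241 snoRNA genes lay inside the 10 hosts on the same strand. Of these, 31 fell wholly within merged host exons, since isoforms that retain the introns are annotated, 2 fell partly within them and 208 fell outside them. The 241 entries carry 239 distinct symbols. Snord80 and Snora16a each appear in repeated entries, with 0 differences over the 77 and 136 bases compared. Snhg1 (chromosome 19 from 8723475 to 8726443, plus strand, 8 snoRNA genes), Snhg8 (chromosome 3 from 123507552 to 123508404, minus strand, 1 snoRNA gene) and Snhg12 (chromosome 4 from 132308623 to 132311024, plus strand, 5 snoRNA genes) are a single merged exon and have no intron by this definition. In Gas5 (chromosome 1 from 161034422 to 161038539, plus strand) 91.3% of the span is exonic and all 10 snoRNA genes are inside exons. The same holds for both snoRNA genes of Snhg5 (chromosome 9 from 88521050 to 88522929, minus strand), for the 1 of Snhg15 (chromosome 11 from 6525591 to 6528760, minus strand) and for the 3 of Snhg17 (chromosome 2 from 158353700 to 158361580, minus strand). Snhg6 (chromosome 1 from 9941959 to 9944118, minus strand) keeps Snord87 in an intron, and Snhg3 (chromosome 4 from 132348014 to 132353686, minus strand) has Snora73a partly in an exon and Snora73b in an intron. Snhg14 (chromosome 7 from 59307924 to 59975759, minus strand) is 3.91% exonic, and 206 of its 208 snoRNA genes are outside its exons.

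**Figure D1:**
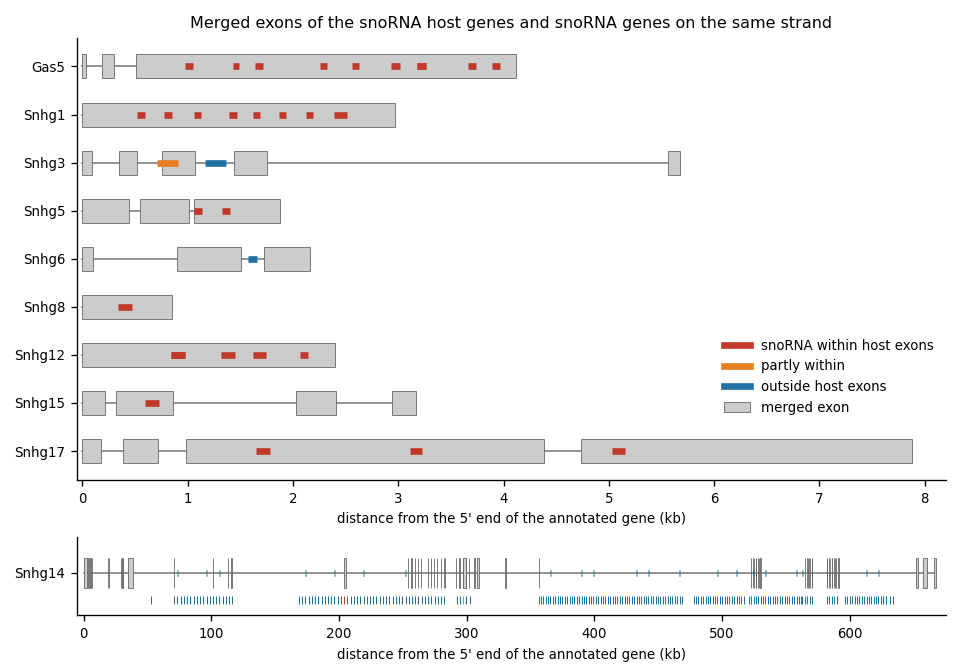
Maps of the 10 host genes, drawn from the 5′ end of each annotated gene in kilobases, with merged exons as grey boxes and same-strand snoRNA genes as coloured bars (for Snhg14, drawn on its own scale, also as ticks under the line). Within Gas5, Snhg1, Snhg5, Snhg8, Snhg12, Snhg15 and Snhg17 the snoRNA genes lie wholly inside exons, within Snhg6 outside them, and within Snhg14 almost all outside them.

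The snoRNA genes themselves were nearly empty in these tables, and where they sat relative to exons went with whether they held counts. All 31 snoRNA genes wholly inside host exons had 0 exon counts in each of the 30 libraries. Over all annotated snoRNA and scaRNA genes, 1 of 163 (0.613%) that lie within an exon of another gene on the same strand held any count, against 541 of 1312 (41.2%) that touch no exon of another gene. Of 15 that lie within an exon of a gene on the other strand and touch none on the same strand, 1 (6.67%) held any count. Whether the counting kept strand was not tested. Reads of those 31 snoRNAs, if any were sequenced, were therefore either counted with the host or left out of both genes. Which of these holds was not tested, so the host exon counts may lack these stretches.

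Snord87 of Snhg6 was the exception among the 10 hosts, with 806 counts over the 30 libraries. Snora73a of Snhg3 held 48, and the snoRNA genes of Snhg14 held 19 in all, with 199 of the 206 outside its exons at 0 in every library. The following sequences from the GENCODE vM21 transcripts (GRCm38) show the snoRNA with counts beside others at or near 0, a choice made after their counts were seen. Capitals mark, in box C/D snoRNAs, the C box (ATGATGA or GTGATGA, in the first 20 bases) and the D box (CTGA, in the last 20), and in box H/ACA snoRNAs the ACA in the last 8 bases.
Snord87: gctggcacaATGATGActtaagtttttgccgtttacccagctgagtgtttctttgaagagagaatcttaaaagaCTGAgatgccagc
Snord47: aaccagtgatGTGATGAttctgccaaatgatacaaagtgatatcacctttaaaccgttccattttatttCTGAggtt
Snord50a: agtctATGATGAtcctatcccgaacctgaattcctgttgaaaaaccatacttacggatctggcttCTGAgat
Snord50b: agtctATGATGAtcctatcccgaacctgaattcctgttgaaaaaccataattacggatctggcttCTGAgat
Snora24: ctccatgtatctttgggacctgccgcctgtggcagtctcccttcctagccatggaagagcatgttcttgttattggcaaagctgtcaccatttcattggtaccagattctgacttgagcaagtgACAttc
Snora73a: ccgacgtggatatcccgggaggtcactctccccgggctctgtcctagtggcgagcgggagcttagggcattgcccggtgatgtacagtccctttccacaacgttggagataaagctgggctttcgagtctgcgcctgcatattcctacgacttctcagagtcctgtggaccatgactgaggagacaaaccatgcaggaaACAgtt
Snora73b: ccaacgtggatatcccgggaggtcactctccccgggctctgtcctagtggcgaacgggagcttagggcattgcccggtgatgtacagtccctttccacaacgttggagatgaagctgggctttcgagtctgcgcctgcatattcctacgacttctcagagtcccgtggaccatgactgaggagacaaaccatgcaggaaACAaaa

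The boxes were searched on the sense strand only, and of 1558 snoRNA and scaRNA transcripts in the annotation 19.8% held both the C and the D box in those windows and 47.6% the ACA. Snord87 is at chr1:9942463-9942549 (minus strand), in the intron of Snhg6. Snord47 is at chr1:161038082-161038158 (plus strand) in Gas5, and Snord50a at chr9:88521529-88521600 and Snord50b at chr9:88521797-88521868 (both minus strand) in Snhg5. Snora24 is at chr3:123507937-123508066 in Snhg8, Snora73a at chr4:132352775-132352979 and Snora73b at chr4:132352322-132352526 in Snhg3, all on the minus strand. Snord50a and Snord50b differ at 1 of 72 bases and Snora73a and Snora73b at 7 of 205, so reads from one copy can match the other, and Snora73b was at 0 in all libraries although it lies in an intron.

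Snord87 lay above its controls after IAA in the SYAT time course, on few counts, and did not pass the test at any time. The controls held 13 and 12 counts, and the libraries after IAA 16 and 40 at 2 h, 18 and 16 at 4 h, 21 and 15 at 6 h and 18 and 43 at 8 h. All 8 libraries after IAA were above both controls in CPM, the lowest after IAA by little. The log2 fold change at 8 h was 1.21 (SE 0.520, adjusted p = 0.349 in edgeR), and at 2 h 1.18 (SE 0.522, adjusted p = 1.00 in edgeR). In sorted cells Snord87 had 6 to 18 counts a library and in wtSRCAP and cdSRCAP cells 13 to 39. In CGR8 cells, whose counts were 77 and 71 without and 61 and 77 with IAA, both IAA libraries were lower in CPM and the log2 fold change was -0.39 (SE 0.406).

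The intron columns of the host genes do not hold the same kind of read in every table. In the 14 libraries of the SYAT time course and of EG1, the intron count of Snhg8 and of Snhg12 equalled the exon count in all 14, although neither gene has an intron, and that of Gas5 was 0.998 to 1.00 times the exon count. In the 16 libraries of CGR8, LG1, wtSRCAP and cdSRCAP cells, Snhg1, Snhg8 and Snhg12 had 0 intron counts and Gas5 at most 15. The intron columns of the first 14 thus count exonic reads of these genes again. Snhg1 stood between, with intron counts of 0.567 to 0.816 times its exon counts in the 14 libraries, and Snhg3 had 0 intron counts in all 30. For intron content proper, only the 16 libraries serve, and there Snhg6 had 0.394 to 0.623 intron counts for each exon count, Snhg5 0.0173 to 0.0979, Snhg15 0.0236 to 0.0837 and Snhg17 0.0158 to 0.0764. Snhg14 had the widest range, 0 to 0.877, with the highest value in a cdSRCAP library after IAA.

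**Figure D2:**
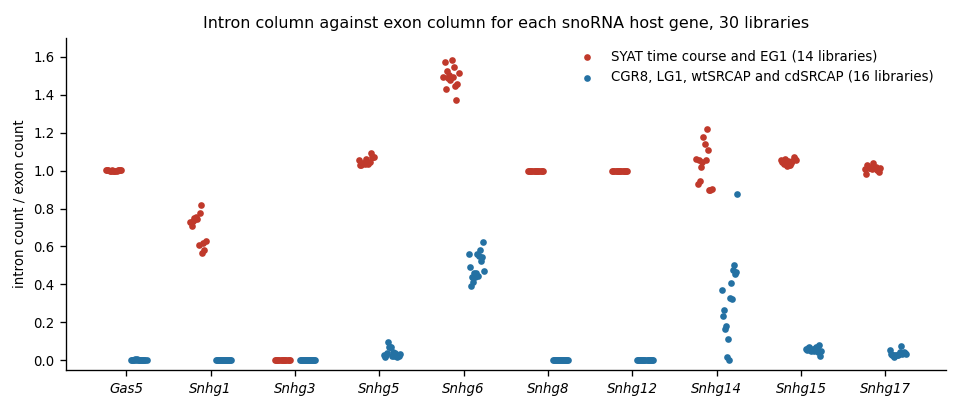
Intron count divided by exon count (no unit) for each host gene, 1 point for each of the 30 libraries, in red for the SYAT time course and EG1 and in blue for the other tables. Snhg8 and Snhg12 sit at 1.0 in red and at 0 in blue, and Snhg6 lies above Snhg14 in every library except 1, a cdSRCAP library after IAA.

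In the SYAT controls the hosts covered a wide range of levels. Per kilobase of merged exon, on the scale of exon CPM, Snhg5 was at 46.2 ± 3.94 (SD, n = 2) and Snhg8 at 45.1 ± 3.80, a pair that differed by less than the larger of their SDs. Next came Snhg1 at 35.1 ± 1.35 and Snhg15 at 32.6 ± 2.94, which did not differ beyond their spread either. Gas5 was at 28.1 ± 0.0726, Snhg12 at 24.4 ± 1.72, Snhg6 at 17.7 ± 0.0979 and Snhg17 at 8.06 ± 0.178, each apart from its neighbours by more than the larger SD. Snhg3 at 2.45 ± 0.384 and Snhg14 at 1.15 ± 0.00672 were the lowest. The merged lengths are those of vM21, and include retained introns, so a level per kilobase of the spliced RNA would be higher and could be ordered otherwise. Snhg3 rested on 9 to 67 exon counts a library over all tables, and it shares its strand and locus with Rcc1, so that reads in shared stretches could be left out of both. The same could hold for Snhg17, which overlaps Gm23925 on its own strand.

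The SYAT time course asks what the loss of SRCAP does to these RNAs over hours, and here most host genes lay higher after IAA by small amounts, of which none passed the test. The median log2 fold change of the 10 in exon counts, IAA over control, was 0.11 at 2 h, 0.22 at 4 h, 0.22 at 6 h and 0.44 at 8 h, against 0.00337, 0.0182, 0.00963 and 0.0308 over all 19205 genes tested. The value lay above 0 for 9, 10, 8 and 10 of the 10, where 50.6%, 52.4%, 50.9% and 53.2% of all genes lay above 0. The 4 comparisons share the same 2 control libraries, which were in auxinole, so each sets IAA against auxinole. In such bulk RNA, fewer cells of one kind and less RNA per cell cannot be told apart.

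By the call rule, an adjusted p under 0.05 from edgeR's quasi-likelihood test with Benjamini-Hochberg adjustment and an absolute log2 fold change over 0.5, 0 of the 10 were called at any time. Over all genes the rule called 0% at 2 h, 0% at 4 h, 0.0677% at 6 h and 0.00521% at 8 h. DESeq2 called 0 of the 10 at 2 h (0.0469% of all genes), 0 at 4 h (0.953%), 0 at 6 h (3.37%) and 1 at 8 h (2.32%), which was Gas5. At an unadjusted p under 0.05 with a higher level after IAA there were 0 of the 10 at 2 h (1.37% of all genes), 1 at 4 h (3.09%), 4 at 6 h (7.93%) and 6 at 8 h (5.13%), and none with a lower level at any time. Both IAA libraries lay above both controls for 4 of the 10 at 2 h (18.6% of all genes), for 8 at 4 h (21.7%), for 7 at 6 h (21.5%) and for 8 at 8 h (20.9%). The 2 whose groups overlapped at 8 h were Snhg3 and Snhg14, the hosts with the lowest levels per kilobase.

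**Figure D3:**
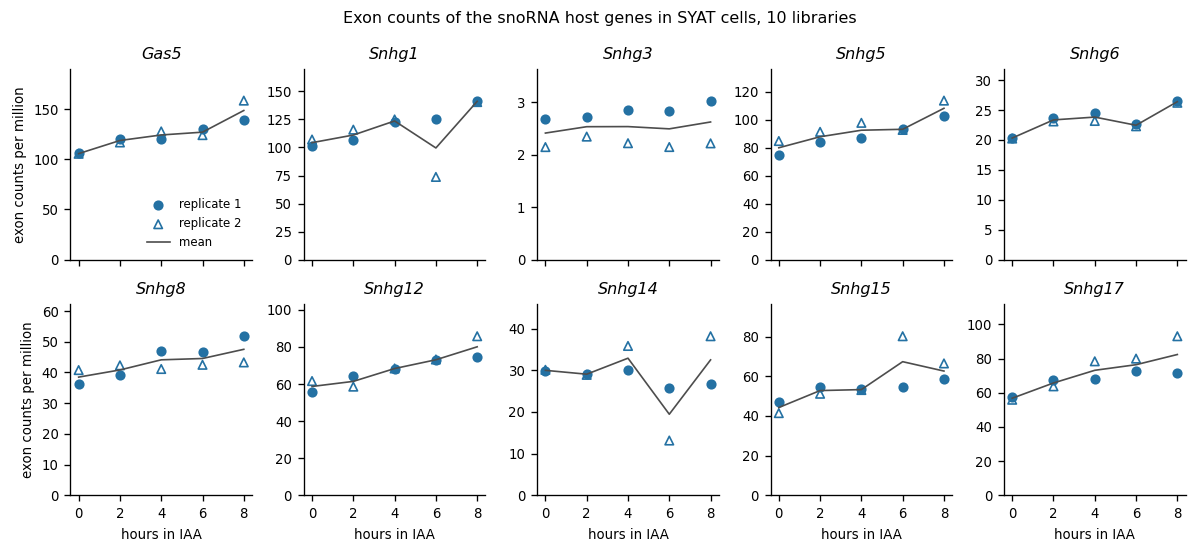
Exon CPM of each host gene (vertical axes from 0, each with its own scale) against hours in IAA in SYAT cells, with replicate 1 as filled circles, replicate 2 as open triangles and the mean of both as a line. At 8 h both libraries lie above both controls for 8 of the 10 genes, and at 6 h replicate 2 is far from replicate 1 for Snhg1, Snhg14 and Snhg15.

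Gas5, named for its rise in growth-arrested cells and host to 10 annotated snoRNA genes, gave the smallest p of the 10 at 8 h. It was at 106 and 106 exon CPM in the controls, 121 and 117 at 2 h, 121 and 128 at 4 h, 130.0 and 124 at 6 h and 139 and 158 at 8 h. Every library after IAA was above both controls. Its log2 fold change at 8 h was 0.49 (SE 0.119, adjusted p = 0.115 in edgeR).

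Snhg17, whose 3 snoRNA genes lie in its exons, had the largest fold change at 8 h. It was at 57.7 and 55.9 in the controls and at 67.7 and 63.8 CPM at 2 h, 67.9 and 78.4 at 4 h, 72.9 and 80.0 at 6 h and 71.7 and 93.1 at 8 h. No library after IAA was as low as a control. The log2 fold change at 8 h was 0.54 (SE 0.153, adjusted p = 0.162 in edgeR).

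Snhg12 and Snhg5 were also at their highest at 8 h. Snhg12, with 4 H/ACA genes and 1 C/D gene, was at 55.8 and 61.6 in the controls and 74.4 and 85.8 at 8 h, with 68.3 and 68.4 at 4 h and 72.9 and 73.3 at 6 h between them. Snhg5, the host of Snord50a and Snord50b, was at 75.2 and 84.8 in the controls and 103 and 114 at 8 h. Their log2 fold changes at 8 h were 0.45 (SE 0.131) and 0.44 (SE 0.130), with adjusted p of 0.169 and 0.180 in edgeR. At 2 h the groups overlapped for both genes, and from 4 h on they did not.

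Snhg6 and Snhg8 gave smaller values. Snhg6 was at 20.4 and 20.2 in the controls and 26.6 and 26.2 at 8 h, which gave a log2 ratio of 0.38 (SE 0.141, adjusted p = 0.278 in edgeR). Snhg8 was at 36.2 and 40.8 in the controls and 51.8 and 43.3 at 8 h, which gave a log2 ratio of 0.30 (SE 0.152, adjusted p = 0.419 in edgeR). In both genes the 8 h libraries lay above the controls, by a narrow margin in Snhg8. Snhg6 overlaps Mcmdc2 on the other strand, as Gas5 overlaps Zbtb37. The library kit keeps strand, but the strand setting of the counting is not given in the sources used here.

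Snhg1, Snhg14 and Snhg15 turned on the 6 h libraries, of which replicate 2 stood apart from replicate 1. Snhg1, with 8 snoRNA genes, was at 102 and 107 in the controls, 122 and 125 at 4 h, 125 and 73.8 at 6 h and 142 and 140.5 at 8 h. The low 6 h value in replicate 2 left a log2 ratio of -0.07 (SE 0.203) at 6 h, which became 0.27 without that library, against 0.44 (SE 0.203, adjusted p = 0.384 in edgeR) at 8 h. Snhg15, the host of Snora9, was at 47.1 and 41.4 in the controls, 54.5 and 80.2 at 6 h and 58.8 and 66.5 at 8 h. Here replicate 2 at 6 h was the highest of the 10 libraries, and the log2 ratio of 0.61 (SE 0.181, adjusted p = 0.161 in edgeR) at 6 h was 0.31 without it. With that replicate as the only 6 h library, whose spread is then taken from the other groups, Snhg15 was called higher (log2 fold change 0.86) and Snhg14 lower (log2 fold change -1.18), and across all genes 1621 were called higher and 1542 lower, 15.4% of those tested.

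Snhg14, the imprinted transcript, was not higher at 2 and 6 h. It was at 29.9 and 30.1 in the controls, 29.2 and 28.9 at 2 h, 29.96 and 35.8 at 4 h, 25.8 and 13.1 at 6 h and 26.8 and 38.2 at 8 h. Both libraries at 2 h and at 6 h were below the controls and those at 8 h lay on either side of them. Its log2 fold change was -0.62 (SE 0.282, adjusted p = 0.312 in edgeR) at 6 h and 0.12 (SE 0.277) at 8 h. Snhg3, which holds the U17 snoRNA genes Snora73a and Snora73b, was at 2.68 and 2.15 in the controls and 3.04 and 2.22 at 8 h, and its groups overlapped at every time.

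**Figure D4:**
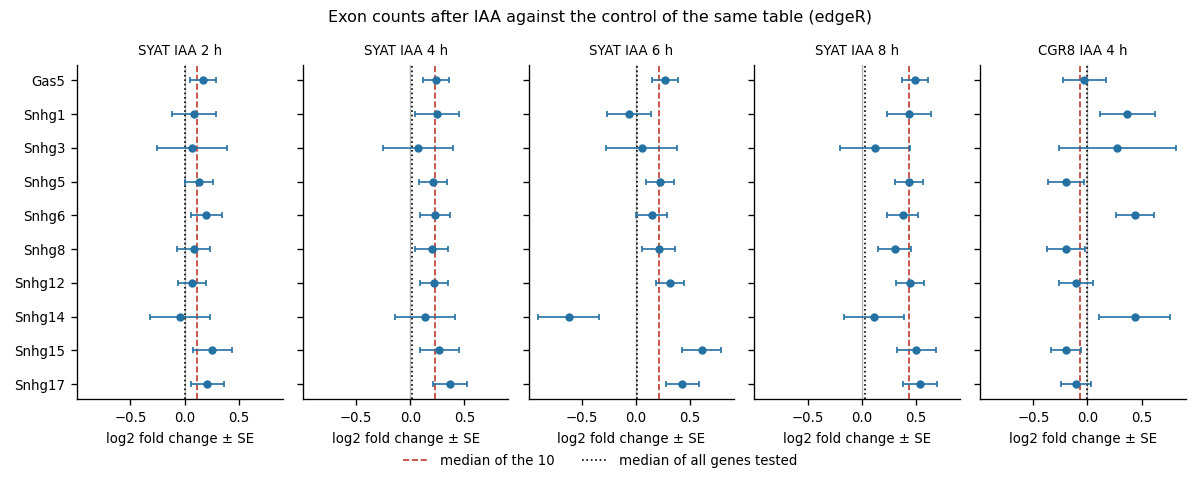
Log2 fold change of exon counts after IAA against the control of the same table for each host gene (points, with bars of 1 SE from edgeR), in 4 panels for SYAT cells and 1 for CGR8 cells, with the median of the 10 dashed and that of all genes tested dotted. The dashed line moves from 0.11 at 2 h to 0.44 at 8 h in SYAT cells and lies at -0.07 in CGR8 cells, while the dotted line stays near 0.

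In the intron column of the time course 9 of the 10 passed the filter on low counts, all but Snhg3, and since this column repeats exonic reads it is no second measurement. None was called, where the rule called 0% of all genes at 2 and at 4 h, 0.0136% at 6 h and 0.00679% at 8 h, and DESeq2 called 0 as well. With the exon count taken off the intron count 5 of the 10 passed the filter, and their median log2 fold change was -0.12, -0.05, 0.32 and 0.03 at 2, 4, 6 and 8 h, beside 0.12, 0.19, 0.20 and 0.37 for the 9 with the column as deposited.

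Other snoRNA genes and the proteins of snoRNA particles give the surroundings. Of 11 further noncoding hosts listed, 8 were found and 7 tested, and their median log2 fold change was 0.10, 0.28, 0.59 and 0.40 at 2, 4, 6 and 8 h with none called. Among them at 6 h were Dancr at 0.52 (SE 0.143), Zfas1, the antisense host at Znfx1, at 0.54 (SE 0.163) and Snhg20 at 0.85 (SE 0.274), with adjusted p of 0.133, 0.164 and 0.183 in edgeR. Of 243 protein-coding snoRNA hosts tested, 133 lay above 0 at 6 h with a median of 0.04, and 1 was called, Alkbh8, a tRNA methyltransferase that fell by 1.13 on the log2 scale (SE 0.146, adjusted p = 0.0450 in edgeR). At 8 h their median was 0.08 with none called, 16 higher and 16 lower at an unadjusted p under 0.05. The median of the 10 at 8 h, 0.44, is thus beside 0.40 in the other noncoding hosts and 0.08 in the coding ones, a difference for which no test was made.

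The 4 core proteins of box C/D particles had a median log2 fold change of 0.19 at 6 h and 0.20 at 8 h, with Nop56 at 0.41 (SE 0.128) and Fbl, the methyltransferase, at 0.31 (SE 0.143) at 6 h. The 4 core proteins of box H/ACA particles had 0.06 and 0.12, with Nhp2 at 0.42 (SE 0.161) and Dkc1, the pseudouridine synthase, at 0.16 (SE 0.119) at 6 h. None of these 8 was called at any time. The 13 assembly and transport factors had medians of 0.09 at 6 h and -0.14 at 8 h, with none called. Ruvbl1 and Ruvbl2, ATPases that serve both snoRNA particle assembly and the SRCAP complex, had log2 fold changes at 8 h of -0.19 (SE 0.194) and 0.17 (SE 0.179). The 10 factors of nonsense-mediated decay, which degrades the spliced hosts, had medians of 0.00166 and 0.07, with Smg8 at -0.35 (SE 0.141) at 6 h and none called.

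CGR8 cells serve to ask what IAA does without the degron. With controls described as untreated, they do not cover the change from auxinole to IAA in SYAT cells. The median log2 fold change of the 10 in exon counts after 4 h was -0.07, with 4 above 0 and 6 below, against -0.000302 over all 20250 genes tested. It was 0.04 without control replicate 2 and 0.17 without IAA replicate 1. None of the 10 was called in edgeR or DESeq2, where edgeR called 0.00988% of all genes, and 1 had an unadjusted p under 0.05, as 9.16% of all genes did. This was Snhg6, at 21.0 and 23.0 CPM without and 26.2 and 33.4 with IAA. Both IAA libraries lay above both controls, with a log2 ratio of 0.44 (SE 0.174, adjusted p = 0.540 in edgeR). Snhg15 went the other way, from 80.5 and 74.2 to 63.5 and 71.2, without overlap and with a log2 ratio of -0.20 (SE 0.138).

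The replicates of CGR8 cells were far apart for several hosts. Snhg1 was at 89.8 and 122 CPM without and 98.8 and 174 with IAA. Gas5 was at 95.2 and 109.9 without and 79.7 and 121 with IAA. In each group replicate 2 was the higher library for 9 of the 10 hosts, by a median of 0.22 on the log2 scale in the controls and 0.36 after IAA. Without control replicate 2, which leaves 1 control library whose spread is taken from the IAA libraries, Snhg14 (log2 fold change 0.99) and Snhg1 (0.61) were called higher, as 2 of the 10 where that fit called 10.9% of all genes. CGR8 and SYAT cells are in separate tables, and the difference between their responses was not tested.

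In the CGR8 intron column 5 of the 10 passed the filter. Snhg17 was at 37.9 and 17.9 CPM of this column without and 15.2 and 14.7 with IAA. Both IAA libraries were below the controls, of which the first was more than 2 times the second, and the log2 fold change was -0.89 (SE 0.396, adjusted p = 0.925 in edgeR). None of the 5 was called in edgeR or DESeq2, and edgeR called 0.0220% of all genes. In edgeR 0 of the 5 had an unadjusted p under 0.05, where 715 of all 13634 genes tested did. Without control replicate 2, again with 1 control library, Snhg17 was called lower at -1.34 in a fit that called 7.74% of all genes. Snhg6, Snhg5, Snhg15 and Snhg14 had log2 fold changes of 0.01, 0.18, -0.06 and -0.10.

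After 1 h of IAA in sorted G1 cells no host gene passed the test, and the values were small. In EG1 the median log2 fold change of the 10 in exon counts was 0.07 and in LG1 -0.03, and between LG1 and EG1 in control medium it was 0.07. The difference of the IAA response, LG1 minus EG1, had a median of -0.03. Over the alternatives these 4 medians ran from -0.01 to 0.17, -0.16 to 0.12, -0.08 to 0.18 and -0.20 to 0.09, so none kept its sign. None of the 10 was called in any of the 4 comparisons by edgeR or DESeq2, none had an unadjusted p under 0.05, and edgeR called 0% of all genes in each. An unadjusted p under 0.05 in edgeR was found for 257, 214, 303 and 147 of all 21020 genes tested. The thresholds that the study set for sorted cells on intronic reads with DESeq2, an unadjusted p under 0.05 and an absolute log2 fold change over 0.25, gave none of the 10 either when applied here to exon counts and edgeR p-values, where it gave 1.22% of all genes in EG1, 1.02% in LG1, 1.44% between the phases and 0.699% for the difference of responses.

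Gas5 was at 110.2 and 103 CPM in EG1 controls and 121 and 113 after IAA, and in LG1 at 108 and 122 in controls and 107 and 113 after IAA. The EG1 groups did not overlap and the LG1 groups did, and the difference of the responses was -0.21 (SE 0.186, adjusted p = 1.00 in edgeR). Snhg15 was at 68.6 and 69.4 in EG1 controls and 75.6 and 72.7 after IAA, which gave a log2 ratio of 0.10 (SE 0.138), and it was 0.12 (SE 0.138) in LG1. The largest values belonged to Snhg3, at 0.42 in EG1 and -0.52 in LG1, on 21 to 67 counts and with standard errors of 0.516 and 0.519. For the other 9 the SE of an IAA response was at most 0.271.

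Same-numbered sorted libraries varied together, and an edgeR fit that took the replicate number as a block called 1 gene higher and 1 lower in EG1, 0 and 1 in LG1 and 113 and 39 between the phases, still with none of the 10. Replicate 1 was higher than replicate 2 for 2 of the 10 hosts in EG1 controls (52.6% of all genes), 3 in EG1 after IAA (48.0%), 1 in LG1 controls (52.9%) and 1 in LG1 after IAA (51.4%). In the intron columns EG1 and LG1 hold different reads and were not compared with each other, and 9 of the 10 passed the joint filter. None was called in EG1 (0.00573% of all genes) or LG1 (0%), by edgeR or DESeq2. In edgeR 0 of the 9 had an unadjusted p under 0.05, where 397 of all 17441 genes did in EG1 and 688 in LG1. Of these 9, Snhg1, Snhg8 and Snhg12 were at 0 in all 4 LG1 libraries and had passed through EG1 alone. Snhg6, the host with most intron counts in LG1, was at 30.8 and 39.4 without and 29.1 and 45.3 with IAA.

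In cells that express wtSRCAP or cdSRCAP the hosts lay higher in replicate 1 than in replicate 2 of the same group, and no comparison between groups passed the test. Gas5 was at 229 and 148 CPM in wtSRCAP controls, 175 and 150.4 after IAA, 279.7 and 144 in cdSRCAP controls and 208 and 160.5 after IAA, replicate 1 first. In each pair the first library was the higher. Replicate 1 was above replicate 2 for 9 of the 10 hosts in wtSRCAP controls, 7 after IAA, 10 in cdSRCAP controls and 9 after IAA, where 48.2%, 46.9%, 48.1% and 47.6% of all genes tested were. The median log2 ratio of replicate 1 to replicate 2 over the 10 was 0.41, 0.14, 0.68 and 0.24. Replicate 1 libraries were also the smaller, with 12236493 to 19239912 exon counts against 21476302 to 26369773, and the part of depth in this was not tested.

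**Figure D5:**
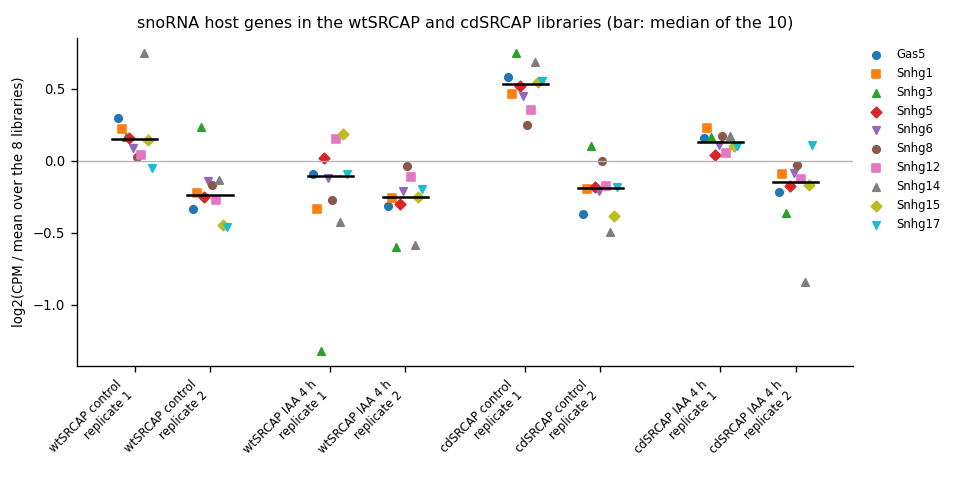
Each host gene in the 8 libraries of cells expressing wtSRCAP or cdSRCAP, as the log2 of its exon CPM over its own mean of the 8 libraries, with the median of the 10 as a bar. The bar is highest in replicate 1 of the cdSRCAP control, and in every group the bar of replicate 1 is above that of replicate 2.

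Against this spread the comparisons gave no call among the 10. The median log2 fold change after IAA was -0.12 in wtSRCAP cells and -0.16 in cdSRCAP cells, where all 10 lay below 0. cdSRCAP against wtSRCAP gave 0.21 in control medium, with 9 of the 10 above 0, and 0.20 after IAA, with 8 above 0. After IAA 5 of the 10 were higher in cdSRCAP cells without overlap, as were 3654 of all 19111 genes tested. The difference of the IAA responses had a median of 0.00503. Single libraries turned most of these medians. Without replicate 1 of the wtSRCAP controls the first was 0.06, and without replicate 1 of the cdSRCAP controls the second was 0.23 and the third -0.16, with 2 of the 10 above 0. Without replicate 1 of cdSRCAP cells after IAA the fourth was 0.0105, the lowest of its 10 alternatives, which all lay above 0. Standard errors of single genes ran from 0.213 to 0.480 in the first 4 comparisons. The edgeR test called 0.00523% of all genes after IAA in wtSRCAP cells, 0% in cdSRCAP cells, 0% between the constructs in control medium, 0.00523% after IAA and 0% for the difference of responses. None of the 10 was called by DESeq2 either, and 0 had an unadjusted p under 0.05 in edgeR in any of the 5. Of all 19111 genes tested, 1415, 1077, 730, 961 and 150 had one, in the same order.

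The largest single values were those of Snhg3 and Snhg14 after IAA in wtSRCAP cells, both below 0. Snhg14 was at 30.8 and 16.7 in the controls and 13.7 and 12.2 after IAA, without overlap and with a log2 ratio of -0.88 (SE 0.469, adjusted p = 0.729 in edgeR). Snhg3 was at 2.46 and 2.59 in the controls and 0.878 and 1.45 after IAA, which gave a log2 ratio of -1.07 (SE 0.480, adjusted p = 0.678 in edgeR). Neither these groups of Snhg3 nor those of Snhg1, which was at 128 and 93.8 in the controls and 86.8 and 91.8 after IAA, overlapped. Lower after IAA without overlap were thus 3 of the 10 hosts, and 3736 of all 19111 genes tested. Snhg17 had the largest value between the constructs in control medium, 73.6 and 55.3 in wtSRCAP and 112 and 67.0 in cdSRCAP cells, and the pairs overlapped, with a log2 ratio of 0.47 (SE 0.270, adjusted p = 1.00 in edgeR).

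Same-numbered libraries varied together in these exon counts too. An edgeR fit that took the replicate number as a block called 332 genes higher and 280 lower after IAA in wtSRCAP cells, 100 and 245 in cdSRCAP cells, 117 and 57 between the constructs in control medium and 113 and 156 after IAA. None of the 10 was called, and an unadjusted p under 0.05 was found in 2 of the 10 (17.7% of all genes), 0 (14.7%), 1 (10.1%) and 1 (14.1%).

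In the intron columns of wtSRCAP and cdSRCAP cells, which hold no exonic reads, 5 of the 10 passed the filter. edgeR called none of them, where it called 0.299% of all genes after IAA in wtSRCAP cells, 0.236% in cdSRCAP cells, 0.102% between the constructs in control medium, 0.0157% after IAA and 0% for the difference of responses. DESeq2 called none of the 5 either. Snhg15 had the only unadjusted p under 0.05 in edgeR, in the last 2 of these comparisons, where 10.2% and 2.54% of all genes had one. It was at 12.6 and 13.8 CPM of this column in wtSRCAP controls and 23.9 and 17.6 after IAA, and at 11.5 and 17.6 in cdSRCAP controls and 6.37 and 9.71 after IAA. After IAA both cdSRCAP libraries were below both wtSRCAP libraries. The log2 fold change of cdSRCAP against wtSRCAP after IAA was -1.35 (SE 0.395, adjusted p = 0.317 in edgeR), and the difference of the responses was -1.49 (SE 0.549, adjusted p = 1.00 in edgeR). The exon counts of Snhg15 gave -0.01 (SE 0.337) and -0.28 (SE 0.476) for the same comparisons.

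Snhg6, the host that keeps Snord87 in an intron, was at 95.7 and 84.7 CPM of the intron column in wtSRCAP controls and 102 and 115 after IAA. In cdSRCAP cells it was at 90.2 and 89.8 in controls and 117 and 70.0 after IAA. These groups overlapped in cdSRCAP cells and not in wtSRCAP cells, with log2 fold changes of 0.06 (SE 0.233) and 0.27 (SE 0.236). Snhg14, most of whose span is intron, was at 44.1 and 38.3 in wtSRCAP controls and 23.9 and 35.3 after IAA, which gave a log2 ratio of -0.46 (SE 0.302, adjusted p = 0.579 in edgeR), beside -0.88 in its exon counts. It overlaps Ube3a, which is expressed from the other strand, over part of this span. On its own strand it overlaps A230103L15Rik, Gm44831 and Gm38393, so reads in shared stretches could be left out there too.

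The 7 further noncoding hosts tested in the exon counts of these cells had a median log2 fold change of 0.31 after IAA in wtSRCAP cells, with 6 of them above 0, and of -0.20 in cdSRCAP cells, with 1 above 0. The 10 hosts had -0.12 and -0.16 in the same comparisons, with 3 and 0 above 0. The difference of the responses was below 0 for all 7 further hosts, with a median of -0.51, where the 10 had a median of 0.00503, and edgeR called none of either group. In CGR8 cells the 8 further noncoding hosts tested had a median of 0.03 and the 249 protein-coding hosts 0.02, beside -0.07 for the 10.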

How the data were processed

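Nuclear RNA of 30 libraries was sequenced in paired ends after a strand-keeping library preparation. The authors used STAR for alignment (mm10) and featureCounts for counting, over GENCODE vM25 exons and over introns, taken as the gene body without exons, and the submitters' processing notes also name SAMtools 1.10, Picard and DESeq2. They deposited raw counts per gene, whole numbers without normalization, in 4 tables with an exon and an intron column per library. Exon columns summed to 12236493 to 60214521 counts, and counting error is covered by the models, not by intervals. Deposited tables of the authors' comparisons, which hold DESeq2 fold changes and p-values, were not used.

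Genes were matched to GENCODE vM21 by identifier without version, 55141 of 55401. The vM21 lengths and positions of Snhg5 and Snhg15 belong to an earlier version of these genes than the counts. Each table and column was fitted across all genes with edgeR 4.0.16 in R 4.3.3 (quasi-likelihood test, TMM normalization, filterByExpr with a minimum count of 10 and a minimum total of 15, Benjamini-Hochberg adjustment), with DESeq2 1.42.0 as an alternative. CPM are counts per 1000000 of the TMM-scaled library size, and log2 ratios and log2 fold changes are the same quantity. The intron columns of EG1 and LG1 were not compared with each other. The fit functions were also run on simulated data, and the outcome is not given here.

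The members and lists were chosen with earlier results of these data known. All 10 members were analysed in the exon column of every table. Outside the time course the text gives the values of only some of them. snoRNA genes with a mean of at least 10 exon counts could be named (others are named after their counts were seen), and of each list those called or else at most the 3 with the smallest p at 6 h. As a check of pairing by replicate number, deviations from the group mean of same-numbered libraries were correlated. The lowest correlation was 0.372 in the sorted exon columns, 0.141 in the sorted intron columns and 0.259 in the wtSRCAP and cdSRCAP exon columns. Elsewhere it was -0.0359 in the time course exons, 0.00135 in the time course introns and 0.0759 in the wtSRCAP and cdSRCAP introns. The time course exons had a median correlation of 0.286 and a highest one of 0.589, beside 0.289 and 0.376 in the wtSRCAP and cdSRCAP exons. CGR8 cells gave 1 correlation a column, 0.0736 for exons and 0.0596 for introns. A block was fitted as an alternative in every table, and in no main fit. The replicate numbers come from the labels.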

Additional observations from a re-analysis of the deposited data

How the results depend on the processing

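The count of host genes called was 0 in all 26 comparisons fitted, and it stayed 0 under median-of-ratios scaling, without the low-count filter, in fits of the compared groups alone and with the replicate number as a block in edgeR. DESeq2 called 1 of the 10 in exon counts after 8 h (Gas5, log2 fold change 0.51), and DESeq2 with the replicate block called 1 after 6 h (Snhg15; 594 higher and 621 lower over all genes) and 2 after 8 h (Gas5 and Snhg17; 254 and 505). Leaving out 1 library at a time gave 0 to 2 called in exon counts after 6 h, 0 to 2 in the intron column after 6 h, and 0 to 2 in exon and 0 to 1 in intron counts of CGR8 cells, the calls being made without 6 h replicate 1 (1621 higher and 1542 lower over all genes in exon and 783 and 685 in intron counts) or without CGR8 control replicate 2 (1471 and 890, and 653 and 462). The cause was not tested, beyond the fact that a lone library has no replicate of its own.

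Among single genes, leaving out 1 library turned the sign of Snhg1 after 6 h (-0.49 to 0.27) and of Snhg3 (-0.13 to 0.33) and Snhg14 (-0.16 to 0.34) after 8 h. The median of the 10 after 8 h ran from 0.37 to 0.46 over 10 alternatives and after 4 h from 0.22 to 0.26, while the CGR8 median ran from -0.20 to 0.17, above 0 without control replicate 2 (0.04) or IAA replicate 1 (0.17). In cells with wtSRCAP or cdSRCAP the medians after IAA ran from -0.27 to 0.06 and from -0.49 to 0.23, above 0 only without control replicate 1 of the same construct.

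Over all genes the calls moved far more. In exon counts after 6 h edgeR called 6 higher and 7 lower, DESeq2 250 and 397, and edgeR with the replicate block 325 and 498. After 8 h the calls were 1 and 0, 111 and 334, and 174 and 460, in the same order. In CGR8 exon counts 0 and 2 stood against 92 and 48 in DESeq2 and 320 and 180 with the block. The lowest correlation of same-numbered libraries was -0.0359 in the time course exons, where the median was 0.286 and the highest 0.589. The only one in CGR8 exons was 0.0736. The main fits took the number as a name only in every table. The intron comparisons of LG1 with EG1 and of their responses were not run. With 2 libraries a group, differences under about the standard errors given are not resolved. Larger ones of several standard errors, such as that of Gas5 after 8 h, did not pass the test in edgeR either. Levels near 50 counts, as in Snhg3, are resolved least of all.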
